A study of Mus musculus with 4 samples.

Results

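The subject is a set of 10 genes that restrain the cell cycle or belong to the p53 pathway, measured in mouse B cells on Agilent 1-colour arrays. They were chosen by name, as every probe that the array design assigns to Cdkn1a, Cdkn2a, Cdkn2b, Cdkn1b, Cdkn1c, Cdkn2c, Cdkn2d, Trp53, Mdm2 or Ccng1, which gave 10 of the 29868 genes and 15 of the 39429 probes of the array. The array RNA came from splenic B cells, isolated by magnetic sorting and activated in culture over 3 days through both the antigen receptor (anti-IgM at 10 µg/mL) and CD40 (antibody FGK4.5, also 10 µg/mL). Donors were male C57BL/6 mice (WT) or male mice deficient in Ackr4 (Ackr4ko), a scavenging receptor for chemokines. There were 2 experiments with different donors, each with 1 Ackr4ko array and 1 WT array. The donors were 73 (Ackr4ko) and 77 (WT) days old in experiment 1, and 71 and 74 days old in experiment 2. All 4 cultures carried the same stimulation, and no unstimulated cells or other days were analysed here. The labels do not describe the Ackr4 allele or say how many mice gave each culture.

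Before the values, the labels need a caution. The genotypes of the scanner files and of the authors' value table are swapped within each experiment. Across 16207 probes, each of the 4 table columns matched the opposite genotype's array best (r of 0.999 to 1.00), and its own label's array less well (0.979 to 0.986). Ackr4 could not decide between them, since neither of its 2 probes rose clearly over background on any array. "Ackr4ko-labelled" and "WT-labelled" therefore follow the scanner files, and if the value table has the genotypes right, the differences measured on the scanner files change sign. In the table's own values, by its own labels, the sign turned for 8 of the 9 tested genes, and Trp53, near 0 in both, stayed at 0.07 (0.08 on the scanner files). The WT-labelled array of experiment 2 also stood apart, with 6.24% of its spots marked as outliers by the scanner software against at most 2.12% on the others. Fewer of its probes were well above background (42.2%, against 49.5% to 54.9%), and its detection limit, taken as the dimmest probe still well above background, was a log2 signal of 5.84, against 3.82 to 4.60 on the others. The B cell identity genes Ms4a1, Cd79a, Cd79b, Pax5, Cd22, Blk and Ebf1 passed the detection filter (7 of 7), and their mean log2 signal was 12.82 to 13.22 over the 4 arrays.

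Cells divide when cyclins switch on the cyclin-dependent kinases (CDKs), which phosphorylate the RB protein and release E2F factors. Inhibitors of the INK4 family (Cdkn2a to Cdkn2d) hold CDK4 and CDK6 in check, and those of the CIP/KIP family (Cdkn1a, Cdkn1b, Cdkn1c) bind a wider range of cyclin-CDK complexes. The p53 protein, encoded by Trp53, is held low by the ubiquitin ligase MDM2 and, when stabilised by stress or DNA damage, switches on Cdkn1a, Mdm2 and Ccng1 among many targets. In B cells activated through their receptor and CD40, leaving the resting state goes with loss of the p27 protein, the product of Cdkn1b, and the brake on Cdkn2a can be lifted by sustained proliferation or oncogene activity.

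The start regions below are shown because the genes with the widest differences, Cdkn1a and Cdkn2a, each start at 2 places, and because Cdkn1a and Ccng1 carry a match to the p53 element there. Each window is the 250 bases before and 50 after a RefSeq start on GRCm38.p6, on the gene's own strand. Capitals mark the motif GGGCGG on either strand (the GC box bound by SP1) and 20 bases that match the p53 response element, a pair of decamers without spacer, with at most 1 mismatch.
Cdkn1a, upstream start, chr17:29090729-29091028, plus strand: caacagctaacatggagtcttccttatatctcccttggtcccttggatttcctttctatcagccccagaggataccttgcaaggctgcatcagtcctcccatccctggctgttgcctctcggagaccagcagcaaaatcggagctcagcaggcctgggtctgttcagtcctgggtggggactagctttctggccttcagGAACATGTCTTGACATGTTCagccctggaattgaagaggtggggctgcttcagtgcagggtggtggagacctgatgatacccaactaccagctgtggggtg
Ccng1, chr11:40755237-40755536, minus strand: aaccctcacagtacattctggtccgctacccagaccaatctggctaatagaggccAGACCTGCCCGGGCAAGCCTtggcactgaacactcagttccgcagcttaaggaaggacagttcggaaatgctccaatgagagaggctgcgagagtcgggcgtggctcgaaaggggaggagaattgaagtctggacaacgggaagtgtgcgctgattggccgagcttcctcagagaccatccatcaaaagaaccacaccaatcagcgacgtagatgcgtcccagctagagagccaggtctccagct
Cdkn2a, upstream start, chr4:89294570-89294869, minus strand: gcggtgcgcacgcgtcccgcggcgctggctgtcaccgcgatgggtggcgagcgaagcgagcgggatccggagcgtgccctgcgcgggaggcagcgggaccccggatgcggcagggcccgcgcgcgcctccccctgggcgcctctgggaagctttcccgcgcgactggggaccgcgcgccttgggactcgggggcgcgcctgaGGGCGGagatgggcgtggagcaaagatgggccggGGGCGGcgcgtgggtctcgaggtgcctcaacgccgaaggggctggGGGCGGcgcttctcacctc
Cdkn2a, downstream start, chr4:89282143-89282442, minus strand: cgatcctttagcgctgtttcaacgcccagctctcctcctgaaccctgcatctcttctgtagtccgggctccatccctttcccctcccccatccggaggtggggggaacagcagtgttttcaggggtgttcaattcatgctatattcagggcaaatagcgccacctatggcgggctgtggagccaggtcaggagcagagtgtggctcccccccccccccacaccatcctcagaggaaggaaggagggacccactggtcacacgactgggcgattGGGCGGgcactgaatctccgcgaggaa

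The promoter table held 12 start windows for 9 of the 10 genes, with Cdkn1c not matched. A p53 element with at most 1 mismatch was found in 2 of the 12, the upstream start of Cdkn1a and the start of Ccng1, against 0.0883% of all 32851 windows. The match begins at position -51 from the start in Cdkn1a and at -195 in Ccng1. The window of the downstream start of Cdkn1a, not shown above, holds 2 GC boxes and 0 such p53 matches. A GC box on either strand was in 8 of the 12 windows, against 35.7% of all, and an E2F motif (TTTGGCGC or TTTCGCGC, either strand) in 0, against 0.813%. A match describes the letters and does not show that a factor binds, and elements outside these windows were not looked at.

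Levels are log2 of the scanner's processed signal after each array was brought to the same 75th percentile, as means over the 4 spots of a probe, and a value is called well above background where at least 50% of the spots carry that mark. On each array the 17177 probes that were never well above background show where an unlit probe lies. Their median was 2.45 and 3.37 on the Ackr4ko-labelled arrays and 2.81 and 4.65 on the WT-labelled arrays, experiments 1 and 2.

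Cdkn1a, which encodes the CIP/KIP inhibitor p21, was the member with the widest difference. Its brightest probe, on chromosome 17 at 29237377 to 29237436 (mm9) and matched to 2 RefSeq transcripts of the gene, read 7.82 on the Ackr4ko-labelled array of experiment 1 and 4.52 on the WT-labelled one. In experiment 2 it read 9.92 and 4.77. Both Ackr4ko-labelled arrays were thus well above background and both WT-labelled arrays were not, and the groups did not overlap. The Ackr4ko-labelled arrays were at least 12.9-fold brighter. For this, each WT-labelled array was taken at its lowest signal that counts as well above background, or at its own reading where that was higher. The latter held in experiment 1, where the reading of 4.52 lay above that limit of 4.31 but was not marked as well above background. The fitted log2 difference was 4.22 ± 0.60 (SE, n = 2 per group, limma adjusted p = 0.123), with 3.30 in experiment 1 and 5.15 in experiment 2. The WT-labelled values are only bounds here, so the size of the fitted difference depends on where an unlit probe lies. The Ackr4ko-labelled arrays themselves were 2.10 apart between the experiments.

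The other Cdkn1a probes separate the transcripts. One lies at 29227986 to 29228045 and matches only transcript variant 2. It read 4.54 and 2.79 in experiment 1 and 5.76 and 4.64 in experiment 2, Ackr4ko-labelled array first, and was well above background only on the Ackr4ko-labelled array of experiment 2. The remaining probe, at 29235299 to 29235358, is assigned to an Ensembl transcript alone and was not well above background on any array. The difference of Cdkn1a therefore rests on the probe shared by the RefSeq transcripts, and the start used cannot be read from these probes.

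Cdkn1b, which encodes p27, was bright on every array. Its brightest probe read 12.58 and 12.45 in experiment 1 and 13.11 and 12.72 in experiment 2, Ackr4ko-labelled array first. The groups overlapped, and the difference was 0.26 ± 0.35 (limma adjusted p = 1.00). Its other probe, assigned to an Ensembl transcript, was dimmer (6.84 to 7.66) and differed by -0.15 in experiment 1 and 0.82 in experiment 2. On the WT-labelled array of experiment 2 the spots of that probe scattered with an SD of 0.77, against at most 0.07 on the other arrays. Cdkn1c, which encodes p57, has 1 probe, which read 4.59 and 4.15 in experiment 1 and 4.92 and 4.73 in experiment 2. None of these values was well above background, so Cdkn1c was not tested.

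Cdkn2a encodes both p16, an INK4 inhibitor, and p19Arf, which frees p53 by binding MDM2. Its brighter probe (chromosome 4, 88920405 to 88920464, mm9) read 6.71 on the Ackr4ko-labelled array and 3.19 on the WT-labelled array of experiment 1. In experiment 2 it read 7.76 and 4.57. As for Cdkn1a, both Ackr4ko-labelled arrays and neither WT-labelled array were well above background, so that the Ackr4ko-labelled arrays were at least 4.45-fold brighter. The log2 difference was 3.35 ± 0.52 (SE, n = 2 per group, limma adjusted p = 0.175), with 3.52 and 3.18 in experiments 1 and 2. The probe matches both RefSeq transcripts of the gene, so p16 and p19Arf messages cannot be told apart. The other probe, at 88920543 to 88920602, also matches both transcripts but lit on none of the 4 arrays, at 2.49 and 3.74 on the Ackr4ko-labelled arrays and 2.74 and 4.64 on the WT-labelled ones. The probes of Cdkn2a hence disagree, and the difference rests on 1 of them.

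Cdkn2b, which encodes the INK4 inhibitor p15, lies beside Cdkn2a, with 31.7 kb between the nearest probes (mm9). Its brighter probe (88952276 to 88952335) read 5.86 and 4.22 in experiment 1 and 6.31 and 4.65 in experiment 2, Ackr4ko-labelled array first. The groups did not overlap, and again no WT-labelled array was well above background, which makes the Ackr4ko-labelled arrays at least 2.01-fold brighter. That bound joins both experiments. In experiment 2 the reading of 6.31 stood against a detection limit of 5.84 on the WT-labelled array, so the size of the difference there rests on an unlit value. The log2 difference was 1.65 ± 0.35 (limma adjusted p = 0.296, n = 2 per group), with 1.64 and 1.66 in experiments 1 and 2. That closeness depends on 1 spot: an outlier on the WT-labelled array of experiment 2 was left out, and with outliers kept the difference there was 0.67 and the overall difference 1.16. The other probe of Cdkn2b (88952720 to 88952779) lit on no array, with 2.78 and 2.77 in experiment 1 and 3.34 and 4.62 in experiment 2.

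**Figure D1:**
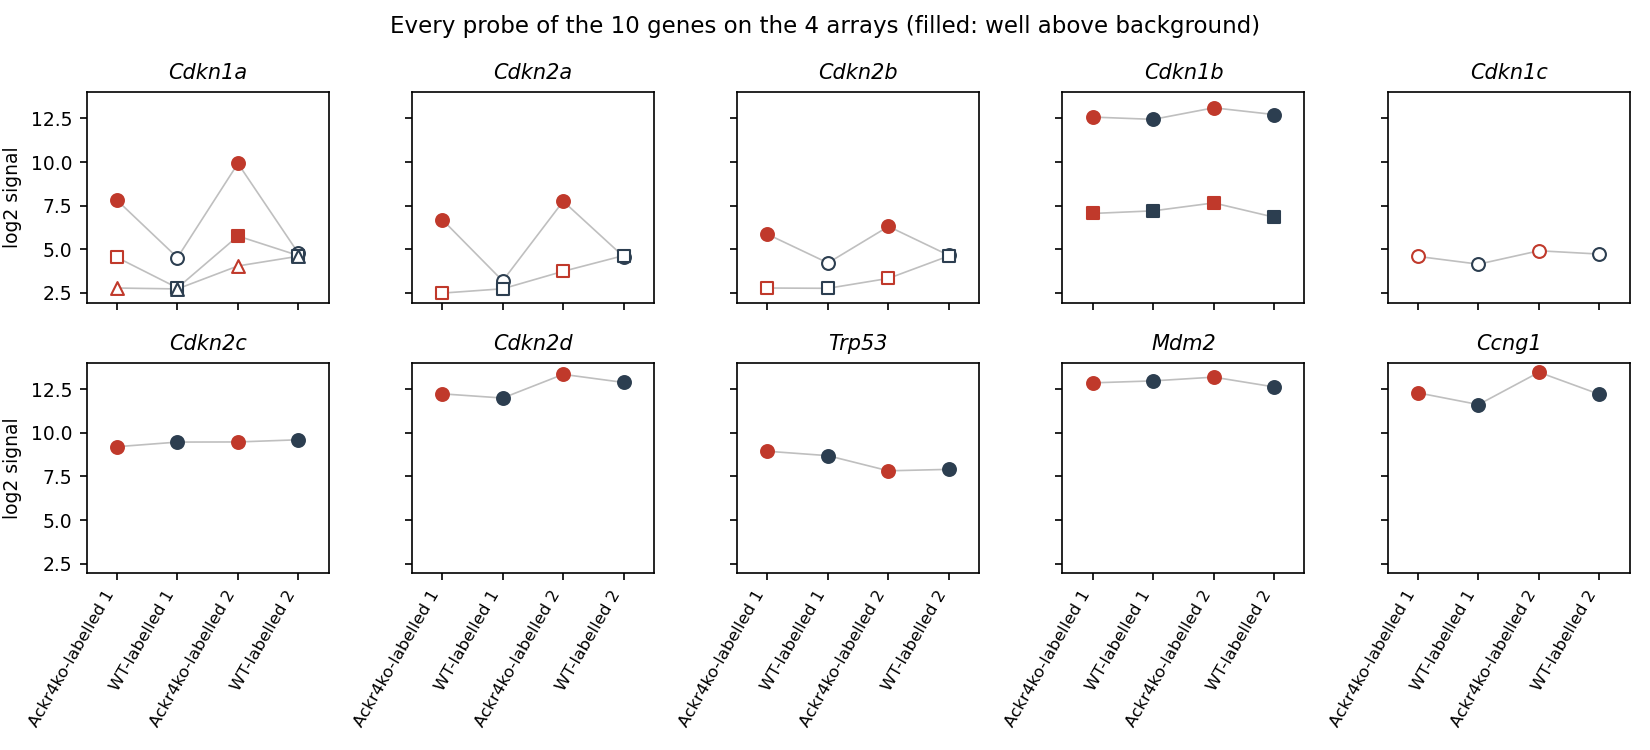
Log2 signal of every probe of the 10 genes on the Ackr4ko-labelled (red) and WT-labelled (dark) arrays of experiments 1 and 2, with filled symbols where the probe was well above background and a marker shape for each probe of a gene. Cdkn1a, Cdkn2a and Cdkn2b each have 1 probe that is filled on both Ackr4ko-labelled arrays and open on both WT-labelled arrays, at 3.19 to 4.77 there.

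The last INK4 members were well above background on all 4 arrays. Cdkn2c, which encodes p18, read 9.20 and 9.47 in experiment 1 and 9.47 and 9.60 in experiment 2, Ackr4ko-labelled array first. It was lower on the Ackr4ko-labelled array in both experiments, with differences of -0.27 and -0.12, and the fitted difference of -0.20 ± 0.33 did not pass the test (limma adjusted p = 1.00). Cdkn2d, which encodes p19INK4d, read 12.23 and 11.99 in experiment 1 and 13.35 and 12.88 in experiment 2. Both arrays of experiment 2 were higher than both of experiment 1, by 1.12 (Ackr4ko-labelled) and 0.89 (WT-labelled), a wider gap than the 0.35 ± 0.47 between the labels (limma adjusted p = 1.00).

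Trp53 itself had no steady direction between the labels. It read 8.94 and 8.69 in experiment 1 and 7.82 and 7.90 in experiment 2, Ackr4ko-labelled array first, so that the sign of the difference changed between the experiments (0.25 and -0.08). Both arrays of experiment 2 were lower than both of experiment 1, and the overall difference was 0.08 ± 0.46 (limma adjusted p = 1.00). Its 1 probe, shown because no other probe reads the gene, lies on chromosome 11 at 69404204 to 69404263 (mm9, plus strand).
Trp53 probe: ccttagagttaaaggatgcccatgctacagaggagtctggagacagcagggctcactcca
On the WT-labelled array of experiment 2 its spots scattered with an SD of 0.45, against at most 0.06 on the others.

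Mdm2, the ligase that p53 itself switches on, was among the bright members, at 12.86 and 12.97 in experiment 1 and 13.19 and 12.63 in experiment 2. The sign again changed between the experiments (-0.11 and 0.56), and the difference of 0.22 ± 0.34 did not pass (limma adjusted p = 1.00). Ccng1, which encodes cyclin G1, a p53 target that acts in feedback on MDM2, read 12.29 and 11.61 in experiment 1 and 13.47 and 12.20 in experiment 2. Both Ackr4ko-labelled arrays were above both WT-labelled arrays, but the Ackr4ko-labelled array of experiment 1 lay close to the WT-labelled array of experiment 2. The difference was 0.97 ± 0.45 (limma adjusted p = 1.00, n = 2 per group), with 0.67 and 1.26 in experiments 1 and 2, and it was 0.38 without the Ackr4ko-labelled array of experiment 2 and 1.56 without that of experiment 1.

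**Figure D2:**
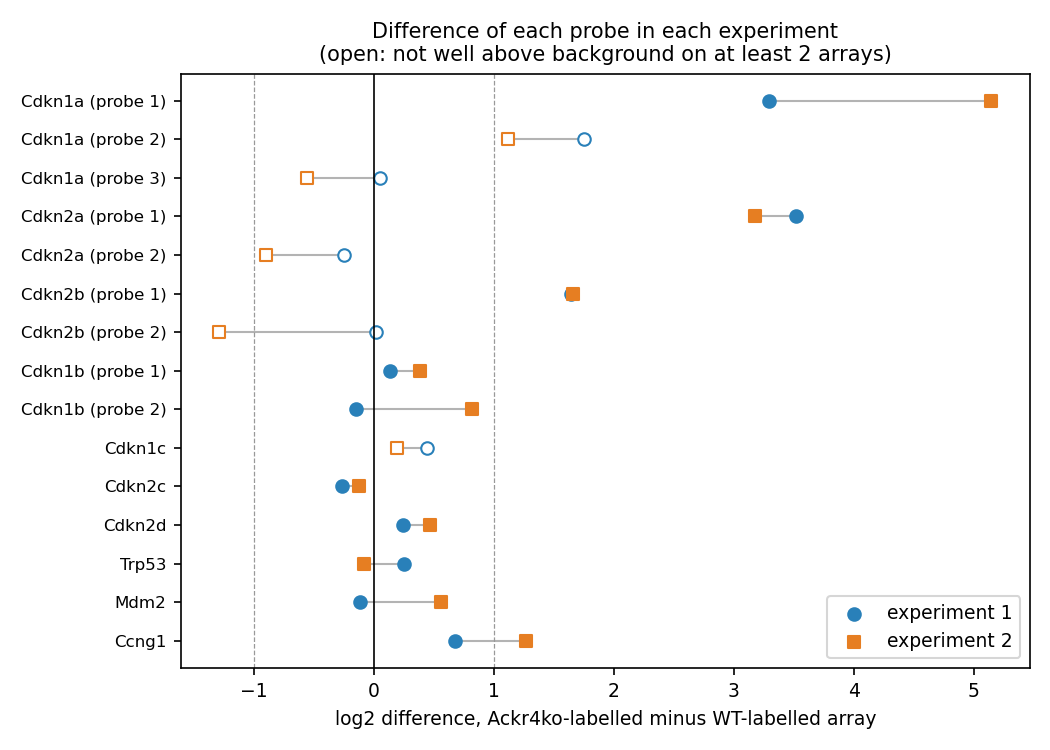
Log2 difference, Ackr4ko-labelled minus WT-labelled array, of each of the 15 probes in experiment 1 (circles) and experiment 2 (squares), with open symbols for probes well above background on fewer than 2 arrays and dashed lines at a 2-fold difference. The filled probes of Cdkn1a, Cdkn2a and Cdkn2b lie beyond 2-fold in both experiments, Ccng1 at 0.67 and 1.26, and the filled probes of the other genes at -0.27 to 0.82.

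Counted together, 9 of the 10 genes had a probe that could be tested, and 6 of them were well above background on all 4 arrays. In limma, 0 of the 9 were called (0.0125% of the 15961 genes tested were, Sema3b and Mst1), and 3 (Cdkn1a, Cdkn2a and Cdkn2b) had an unadjusted p under 0.05, as 4.59% of genes did. The same 3 were at least 2-fold higher in both experiments, against 1.28% of genes, and 0 were at least 2-fold lower, against 0.514%. These 3 passed the detection filter only through the arrays on which they were bright, so they had to differ, and their number supports nothing. The groups did not overlap, with the Ackr4ko-labelled arrays higher, in 4 of the 9 (19.0% of genes), the other being Ccng1. Of the 9, 6 were higher in both experiments (33.0% of genes), 1 was lower, Cdkn2c (20.9%), and 2, Trp53 and Mdm2, went in opposite directions (46.1%). Among the 6 genes measured on every array, the differences were -0.20 to 0.97, where the median of all genes was 0.08. With 2 arrays per group, an exact two-sided permutation test cannot give a p below 0.333.

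Arrays of an experiment deviated together (r = 0.42 over 15961 genes), and with the experiment as a block the calls changed. Cdkn1a (limma adjusted p = 3.73e-30), Cdkn2a (1.39e-18) and Cdkn2b (1.75e-04) were then called, with 3.33% of genes (2.04% as higher), while Ccng1 was not (0.116). That fit gives every gene the same variance (SE 0.35), as if the genes did not differ in their spread. Cdkn1a, Cdkn2a and Cdkn2b also entered each fit of this paragraph only through the arrays on which they were bright. They had to differ, so their calls support nothing. After quantile normalization the blocked fit called 0% of genes, with 9.07% at an unadjusted p under 0.05, and the adjusted p of these 3 genes was 0.387, 0.337 and 0.466. Without a block, Cdkn1a and Cdkn2a were called without the WT-labelled array of experiment 1 (4.10 and 2.66, limma adjusted p = 0.00156 and 0.0480) and without that of experiment 2 (4.35 and 4.04, 2.06e-04 and 1.31e-04), and missed the threshold when either Ackr4ko-labelled array was left out (for Cdkn1a 5.27 and 3.17, limma adjusted p = 0.072 and 0.627). In these fits the lone array is assumed to vary like the pair of the other genotype. With normexp background correction the differences shrank to 2.38 for Cdkn1a, which was then called (limma adjusted p = 0.0369), 1.44 for Cdkn2a and 0.60 for Cdkn2b, which were not.

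**Figure D3:**
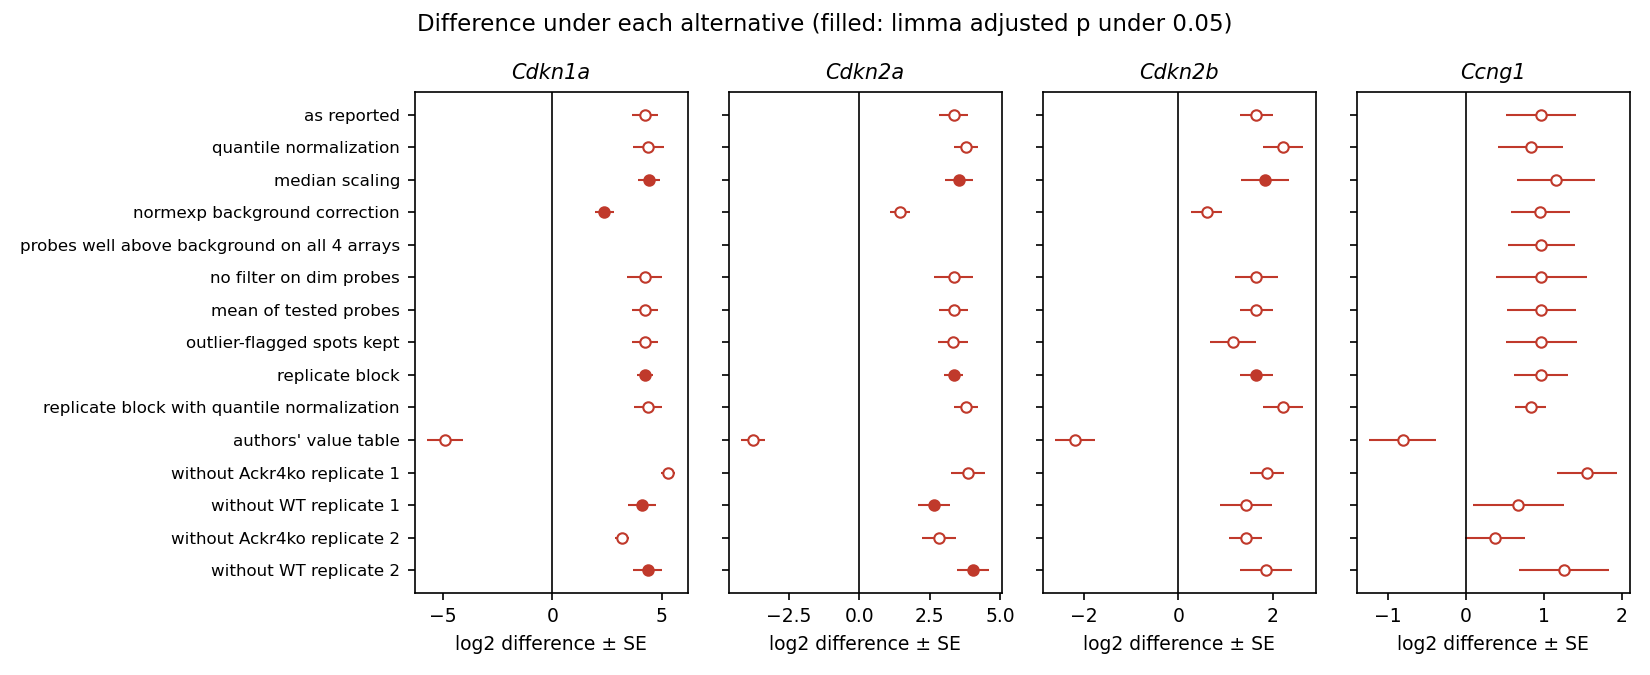
Fitted log2 difference ± SE, Ackr4ko minus WT, of Cdkn1a, Cdkn2a, Cdkn2b and Ccng1 as reported and under each alternative, filled where the limma adjusted p was under 0.05; a gene has no point where its probe did not pass the filter. Cdkn1a lies between 2.38 and 5.27 in every setting that uses the scanner files and at -4.89 in the authors' value table, whose genotype order is the opposite.

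Genes that p53 is known to switch on were looked at next, from a list that leaves out the genes above. Of 32 such genes 28 were tested. Of these, 17 (60.7%) were higher on the Ackr4ko-labelled array in both experiments, 3 lower and 8 in opposite directions, against the shares of all genes just given. Their median difference was 0.40, with 0.25 in experiment 1 and 0.89 in experiment 2, where all genes gave -0.04 and 0.23. The range over these targets was -0.74 to 2.90, and with quantile normalization their median was 0.30 (0.02 over all genes). In limma 0 were called, 6 had an unadjusted p under 0.05 (4.59% of all genes), and with the block 4 were called, all as higher (2.04% of all genes): Epha2, Phlda3, Fas and Zmat3, the last named after its value was seen. The blocked fit gives every gene the same variance, and after quantile normalization it called 0% of genes. Epha2 passed the filter only through the arrays on which it was bright. The list was chosen with earlier results of these data known. The summed signal of the 28 tested targets was 54079 and 79821 on the Ackr4ko-labelled arrays and 49890 and 45148 on the WT-labelled ones. The Ackr4ko-labelled array of experiment 2 was thus the highest. The median was 0.26 without that array and 0.67 without the Ackr4ko-labelled array of experiment 1.

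On that list 3 genes were at least 2-fold higher in both experiments, where 1.28% of all genes were, and 1 of them, Epha2, passed the detection filter only through the Ackr4ko-labelled arrays and so had to differ. Epha2, a receptor tyrosine kinase, read 6.05 and 2.86 in experiment 1 and 7.28 and 4.67 in experiment 2, Ackr4ko-labelled array first. No WT-labelled array was well above background for it, and the Ackr4ko-labelled arrays were at least 3.00-fold brighter. Phlda3, an inhibitor of AKT signalling, was well above background on all 4 arrays and read 10.21 and 8.39 in experiment 1 and 12.35 and 9.87 in experiment 2. Its difference was 2.15 ± 0.70 (limma adjusted p = 0.759), and the groups did not overlap. Fas, the death receptor, read 13.14 and 12.13 in experiment 1 and 13.85 and 12.37 in experiment 2, a difference of 1.25 ± 0.37 (limma adjusted p = 0.636).

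Genes that act on p53 itself formed another list. Of 19 tested regulators of p53, 7 were higher and 5 lower in both experiments, where 33.0% and 20.9% of all genes were. Their median was 0.09. Its sign turned without the Ackr4ko-labelled array of experiment 1 (-0.12) or the WT-labelled array of experiment 2 (-0.13). It was also slightly negative with quantile normalization (-0.012) and with normexp background correction (-0.0074). The smallest p belonged to Trp63, a relative of Trp53, which was lower in both experiments (-0.92 and -0.72) (-0.82 ± 0.36, limma adjusted p = 1.00), and to Atr, a kinase of the DNA damage response (0.71 ± 0.32). Of the tested genes that regulate the CDK inhibitors, 8 of 17 were higher in both experiments (33.0% of all genes) and 2 lower (20.9%). Their median was 0.11. It was 0.02 with quantile normalization and 0.30 with median scaling, where the median of all genes was 0.02 and 0.27. Id1, an inhibitor of helix-loop-helix factors, gave 0.30 and 2.32 in experiments 1 and 2 and was the 1 gene of that list called with the block (limma adjusted p = 0.00806), where 3.33% of all genes were. No WT-labelled array was well above background for Id1, so it too passed the filter only through the arrays on which it was bright. Bmi1, a Polycomb protein that represses the Cdkn2a locus, read 10.89 and 11.92 in experiment 1 and 10.67 and 11.16 in experiment 2. It was thus lower on both Ackr4ko-labelled arrays (-0.77 ± 0.37), without passing the test (limma adjusted p = 1.00). Ezh2, another Polycomb gene of the list, named after its value was seen, went the other way by a similar size (0.78 ± 0.40, with 0.30 and 1.26 in experiments 1 and 2) and did not pass either.

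The machinery that the inhibitors act on was read from the last lists. Of 16 tested cyclins, CDKs and their activators, 8 were higher and 2 lower in both experiments (33.0% and 20.9% of all genes), with a median of 0.25. That median was 0.06 without the WT-labelled array of experiment 1. It was 0.09 without the Ackr4ko-labelled array of experiment 2 and 0.40 without that of experiment 1. With quantile normalization it was 0.10, with median scaling 0.44, and without the filter on dim probes -0.01. Cdk6, an INK4-sensitive kinase, gave 0.97 ± 0.40 (limma adjusted p = 1.00) with 0.37 and 1.58 in experiments 1 and 2. On the WT-labelled array of experiment 2 it read 4.79, under the detection limit of 5.84 there. The size of the Cdk6 difference in experiment 2 thus rests on an unlit value. Cdk4, also INK4-sensitive and named after its value was seen, gave -0.16 ± 0.32, with -0.34 and 0.03 in experiments 1 and 2. The S phase cyclin Ccna2 gave 0.48 ± 0.36. Of the 13 RB and E2F genes, 4 were higher and 5 lower in both experiments (33.0% and 20.9% of all genes). Their median was -0.00129 (-0.07 to 0.11 with an array left out), and E2f5 (0.85 ± 0.35) and Rbl2 (0.44 ± 0.33) had the smallest p. In limma without a block, 0 genes of these 4 lists were called (0.0125% of all genes). An unadjusted p under 0.05 was found for 4.59% of all genes. Here 1 of 17 CDK inhibitor regulators (Id1), 1 of 16 cyclins and CDKs (Cdk6) and 1 of 13 RB and E2F genes (E2f5) reached it. Of the 19 p53 regulators, 0 did.

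**Figure D4:**
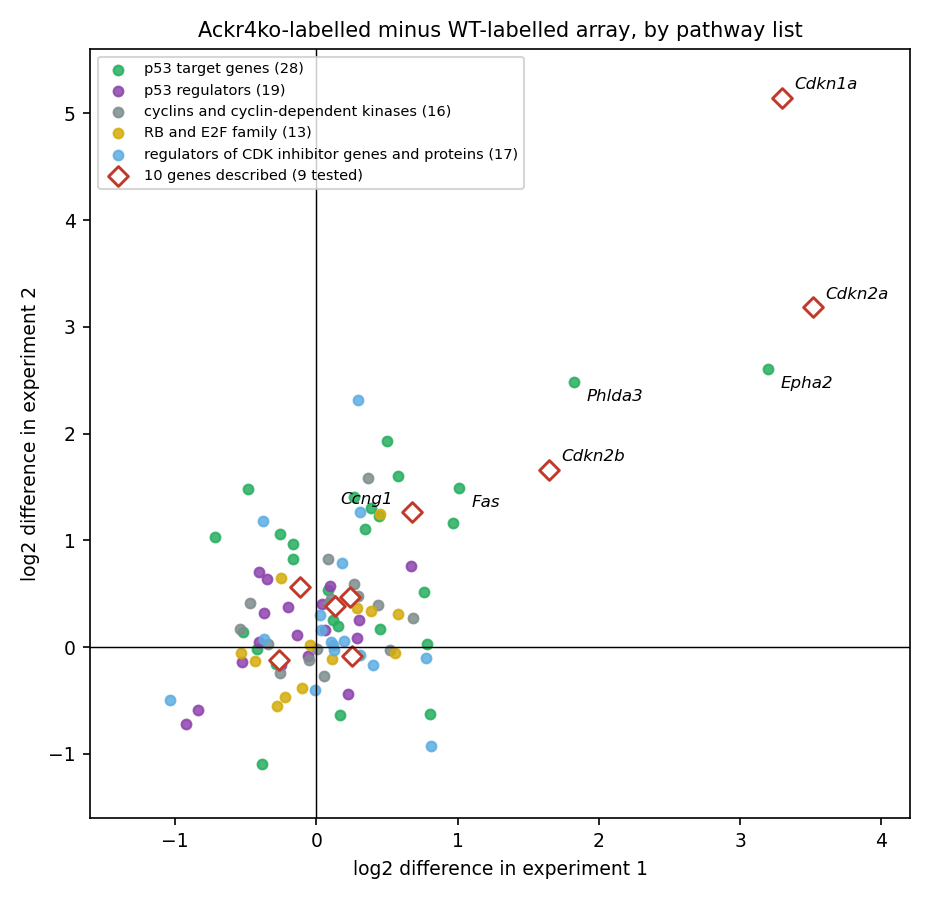
Log2 difference, Ackr4ko-labelled minus WT-labelled array, in experiment 1 (horizontal) against experiment 2 (vertical) for the tested genes of 5 pathway lists and, as open diamonds, the 9 tested genes of the set. Cdkn1a, Cdkn2a, Epha2 and Phlda3 lie farthest to the upper right, and most genes of the other lists lie within 1 of 0 on both axes.

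The genes whose pattern over the 4 arrays lay nearest to that of Cdkn1a, by the root mean square distance of log2 values centred on each gene's mean, were Apold1 (0.59), Iqcf5 (0.60) and the neuronal-type enolase gene Eno2 (0.65). Apold1 read 7.25 and 5.48 in experiment 1 and 10.04 and 5.49 in experiment 2, Ackr4ko-labelled array first. Iqcf5 read 6.85 and 2.85, then 8.63 and 4.73, and Eno2 read 8.19 and 6.01, then 10.09 and 6.42. Iqcf5 was well above background on 0 WT-labelled arrays, so it passed the filter only through the arrays on which it was bright. Apold1 and Eno2 were each well above background on 1 WT-labelled array. As the WT-labelled values of Cdkn1a were unlit too, part of this likeness rests on unlit values. With 4 arrays many genes can share such a shape, and the distance is a description.

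Other spleen cells could contribute RNA, and their markers are given because in bulk RNA fewer cells of a type and less RNA per cell cannot be told apart. Of 7 dendritic cell markers 5 were tested, and 4 were higher in both experiments (33.0% of all genes were), with a median difference of 1.07. In limma 0 of them were called, and 4 had an unadjusted p under 0.05 (4.59% of all genes). Their summed signal was 62747 and 75369 on the Ackr4ko-labelled arrays and 64504 and 62897 on the WT-labelled ones, lower on the Ackr4ko-labelled array in experiment 1 and higher in experiment 2. That sum mostly follows Siglech, by far the brightest of the 5. Siglech read 15.66 and 15.87 in experiment 1 and 16.03 and 15.83 in experiment 2, Ackr4ko-labelled array first. The other 4 were the ones higher in both experiments. Batf3 and Fscn1, at least 2.59-fold and 2.40-fold brighter, were the 2 at least 2-fold higher in both experiments (1.28% of all genes). However, both passed the detection filter only through the Ackr4ko-labelled arrays and so had to differ. Both are also among the 4 with an unadjusted p under 0.05. In experiment 2 Fscn1 read 6.29 on the Ackr4ko-labelled array, against a detection limit of 5.84 on the WT-labelled one. Flt3 (1.07) and Zbtb46 (1.00), named after their values were seen, were well above background on all 4 arrays, Siglech gave -0.01, and Xcr1 and Clec9a were not well above background on any array. Their part in the differences of the members was not tested. The median difference was 0.04 for the 6 T cell markers that could be tested, -0.31 for the 4 of macrophages and monocytes, and -0.26 for the 5 of plasma cells. Within the experiments the plasma cell median was above 0 (0.12 and 0.09). Of those 5, 2 were higher and 0 lower in both experiments, and 3 went in opposite directions (33.0%, 20.9% and 46.1% of all genes). For the 7 B cell identity genes the median difference was -0.23, with 0.11 and -0.23 in experiments 1 and 2. Of these 7, 1 was higher and 3 were lower in both experiments (33.0% and 20.9% of all genes). Their summed signal was 292932 and 282146 on the Ackr4ko-labelled arrays and 365092 and 348249 on the WT-labelled ones, mostly from Ms4a1 and Cd79b. Among NK, neutrophil, erythroid and stromal markers, 1, 2, 1 and 2 genes were tested.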

How the data were processed

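RNA of 4 B cell cultures was hybridised to Agilent 1-colour arrays. The deposited scanner files hold spot intensities, of which the processed signal was used. The submitters' processing notes name Agilent Feature Extraction (version 10.7.3.1). The authors' value table holds linear intensities with a median of 67 and a lowest value of 15, and served as an alternative. Here the log2 signal was brought to each array's 75th percentile, control and outlier spots were left out, and the 4 spots of a probe were averaged. Testing required a well-above-background mark for 50% or more of a probe's spots on 2 or more arrays, and a gene was read from its brightest tested probe. That left 20862 probes and 15961 genes. The genotype difference was fitted in R 4.3.3 by limma 3.58.1 (two-sided, Benjamini-Hochberg, threshold 0.05), without a block. The scripts were tested on simulated data with neither an experiment effect nor a detection limit. That test therefore does not cover shared deviations or unlit values.

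Arrays of the same number share an experiment, per the series text. With 2 groups of 2 the deviations of same-experiment arrays correlated at r = 0.42. Probe positions are mm9, per the file headers; exon and UTR positions were not used here. At-least folds set each array of a group not above background at its lowest signal well above background, or at its own reading where that was higher. They use log2 means over the 2 experiments. The members and gene lists were chosen with earlier results of these data known. All members were named; from each list, genes called or at least 2-fold different in both experiments, and where fewer than 2, the 2 with the smallest p; and the 3 genes nearest to Cdkn1a. Other normalizations, background correction, filters, probe rules, blocks, left-out arrays and the value table were tried. A marker gene is not reported here.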

Additional observations from a re-analysis of the deposited data

How the results depend on the processing

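The precision is limited by 2 arrays per genotype and, for Cdkn1a, Cdkn2a and Cdkn2b, by WT-labelled values that are only bounds. Leaving aside the value table, the log2 difference stayed between 2.38 and 5.27 for Cdkn1a, 1.44 and 4.04 for Cdkn2a, 0.60 and 2.22 for Cdkn2b, and 0.38 and 1.56 for Ccng1. In limma 2 genes were called over the whole array, against 1 with quantile normalization, 188 with median scaling (which moved the median of all genes from 0.08 to 0.27), 20 with normexp, 0 with probes well above background on all 4 arrays (524 at an unadjusted p under 0.05), 0 without a filter (296), 532 with the experiment as a block, 0 with the block and quantile normalization (1447), 1 in the value table, and 1 to 122 with an array left out. Of the members 0 were called (3 at an unadjusted p under 0.05), against 3 with median scaling, 3 with the block, 1 with normexp (Cdkn1a, 2.38) and 0 to 2 with an array left out. Median scaling and the block each gave all genes 1 variance. Every member called was Cdkn1a, Cdkn2a or Cdkn2b, which passed the filter only through the arrays on which they were bright. At least 2-fold in both experiments were 3 members, against 2 with outlier spots kept, 1 with normexp and 0 with the filter on all 4 arrays, which removes them. In the value table, whose genotypes are swapped, the differences were -4.89 (Cdkn1a), -3.78 (Cdkn2a), -2.19 (Cdkn2b), -0.12 (Cdkn1b), 0.31 (Cdkn2c), -0.22 (Cdkn2d), -0.071 (Mdm2) and -0.81 (Ccng1), while Trp53 was 0.07 (0.08 on the scanner files), and the median of the p53 targets was -0.28 and of the p53 regulators 0.03. With an array left out the sign turned for Trp53 (range -0.48 to 0.65, below 0 at -0.48 without Ackr4ko replicate 1 and -0.31 without WT replicate 2), Cdkn2d (-0.21 to 0.91, below 0 at -0.09 without WT replicate 1 and -0.21 without Ackr4ko replicate 2) and Cdkn1b (-0.0064 to 0.52, below 0 without Ackr4ko replicate 2); the cause was not tested.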
